A study of Arabidopsis thaliana with 30 samples.

Results

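Waterlogging for 10 min was compared with no treatment in systemic leaves of WT Arabidopsis thaliana (accession Col-0). The members were the libraries titled as WT waterlogging at 10 min and WT control at 10 min, 3 of each, which made 6 of the 30 libraries of the study. The study sampled Col-0 leaves at 0, 10, 30 and 60 min and leaves of the rbohD mutant at 0 and 60 min, with untreated plants harvested beside the waterlogged ones at each later time. All groups compared below were Col-0, carried no transgene or mutation by the labels, and differed only in treatment and time: waterlogged for 10, 30 or 60 min, untreated at the same times, and untreated at 0 min. The rbohD libraries were not compared, but in fits over all 30 libraries they entered the filter on low values and the shared estimate of spread behind the p-values. The design text gives 3 repeats made up from 15 plants per genotype and time, so a library is a pool of plants, and it does not say whether the repeats were grown apart. P-values therefore measure the spread between pooled samples.

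A stress at the roots is known to reach distant leaves within minutes through waves of calcium, reactive oxygen species and membrane potential. RBOHD, the main NADPH oxidase of Arabidopsis leaves, carries the oxygen part of that wave. Wounding, touch, high light and heat all switch on a shared early set of genes in leaves, among them ERF, WRKY and zinc finger transcription factors, calcium sensors and enzymes that remodel the cell wall. The best known waterlogging genes are a different set: fermentation enzymes such as ADH1 and other targets of the group VII ERF factors, which accumulate when oxygen is low.

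The 6 libraries were alike. Their values, in FPKM (fragments mapped to a gene, scaled by its length and by the size of the library), implied 12.3 to 13.0 M fragments each, against 10.9 to 13.3 M over all 30 libraries. Mesophyll and photosynthesis markers summed to 60000 to 60900 FPKM in the waterlogged leaves and 61000 to 62600 FPKM in the control leaves, and none of the 7 was called (limma, adjusted p). Of 12 root markers, 11 were below 1 FPKM in all 6 libraries, and RHD6, NRT2.1, IRT1, CASP1 and EXPA7 were among those listed at 0. The 12 together summed to 87.8 to 94.6 FPKM in waterlogged leaves and 92.4 to 100 FPKM in controls. Most of that sum came from the remaining marker, which was not called. None of the guard cell, epidermis, phloem, xylem, or shoot meristem and flower markers was called either. Of all 20 markers tested, 1 had an unadjusted p below 0.05, against 13.1% of all genes tested, and 0 were called by limma with trend and robust options. Of all genes tested 5% were called, so the lack of calls among so few markers says little about cell make-up. The root list and the shoot meristem and flower list each had only 1 gene tested. Leaf libraries cannot tell fewer cells of a type from less RNA per cell.

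After 10 min of waterlogging 724 genes were higher and 151 lower than in the matched controls, out of 17491 that averaged 1 FPKM or more across the study. The call was an adjusted p below 0.05 in limma fitted to log2(FPKM + 1) over all 30 libraries, and it took 5% of the genes tested, 4.14% higher and 0.863% lower. The median log2 fold change was 0.52 among the higher genes and -0.32 among the lower ones. At least a 2-fold change was reached by 148 higher genes (0.846%) and 5 lower genes (0.0286%), together 0.875% of those tested. The median over all genes tested was -0.01 on the log2 scale. In 3812 genes, 21.8% of those tested, the 3 waterlogged and 3 control values did not overlap. Protein-coding genes made up 714 of the higher and 146 of the lower genes.

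**Figure D1:**
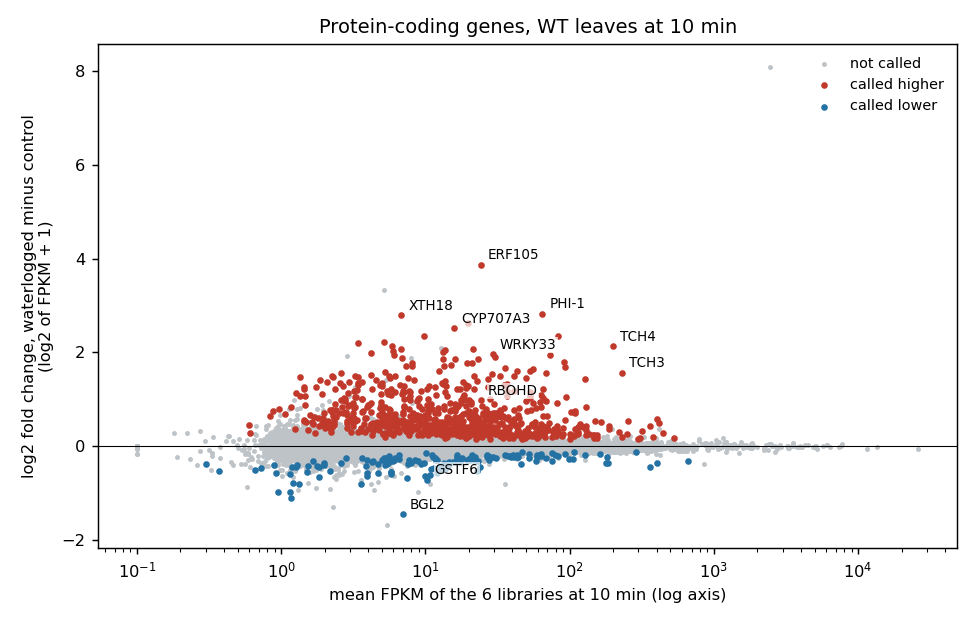
Each point is 1 protein-coding gene that was tested, with its mean FPKM over the 6 libraries at 10 min on a log axis (means below 0.1 are drawn at 0.1) and its log2 fold change, waterlogged minus control, on the other axis. Called genes are coloured, and the higher ones reach further from 0 than the lower ones: ERF105 stands at 3.87 and BGL2 at -1.45.

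ERF105, an ethylene response factor of the AP2/ERF family that is known to respond to cold and other stresses, had the largest rise of the protein-coding genes. It is AT5G51190, on chromosome 5 at 20800473 to 20801437 (TAIR10). It measured 46.6, 44.7 and 47.0 FPKM in the waterlogged leaves, against 1.79, 2.2 and 2.73 FPKM in the controls. No waterlogged library came near a control library. The log2 fold change was 3.87 ± 0.22 (SE, adjusted p = 3.84e-12). Before treatment, at 0 min, the gene was listed at 2.87e-05, 4.52e-05 and 6.74e-06 FPKM, so the controls at 10 min also stood above the 0 min leaves. Values this small are less than a whole fragment and amount to no signal.

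The next largest rises were in cell wall genes. PHI-1 (AT1G35140, chromosome 1 at 12851983 to 12853235), a phosphate-responsive protein of the EXORDIUM family, measured 122, 109 and 111 FPKM in waterlogged leaves, against 15.8, 15.0 and 14.8 FPKM in the controls. Its log2 fold change was 2.82 ± 0.09 (adjusted p = 2.11e-16). XTH18 (AT4G30280, chromosome 4 at 14825757 to 14827211), one of the enzymes that cut and rejoin xyloglucan chains, stood at 12.1, 12.9 and 12.6 FPKM in waterlogged leaves and at 1.06, 1.03 and 0.783 FPKM in control leaves, a log2 fold change of 2.79 ± 0.10 (adjusted p = 2.29e-15). In both genes every waterlogged library was several times above every control. EXO, the founding member of the family of PHI-1, measured 138, 140 and 143 FPKM in waterlogged leaves, against 27.9, 26.6 and 26.1 FPKM in controls. TCH4, a touch-induced xyloglucan endotransglucosylase, was the most abundant of the 15 largest rises, with 324, 337 and 321 FPKM in waterlogged leaves against 70.1, 79.6 and 72.5 FPKM in controls. The log2 fold changes were 2.34 ± 0.10 for EXO and 2.13 ± 0.07 for TCH4 (adjusted p = 2.61e-14 and 3.2e-16), and neither gene's groups overlapped.

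CYP707A3, a hydroxylase that breaks down abscisic acid, measured 28.6, 27.2 and 27.2 FPKM in waterlogged leaves, against 4.32, 3.6 and 4.2 FPKM in controls. The log2 fold change was 2.51 ± 0.11 (adjusted p = 2.79e-14), and the groups lay far apart. Genes annotated only by their product stood beside it. The glycine-rich protein AT1G07135 averaged 34.6 FPKM in waterlogged leaves and 4.81 FPKM in controls, and AT1G33760, a predicted AP2-type DNA-binding protein, averaged 9.08 FPKM in waterlogged leaves and 1.17 FPKM in controls. The others of the 15 largest rises were ERF6, ERF104, WRKY40, DREB26, the TIR-NBS-LRR resistance protein AT5G41750, the predicted nuclease AT4G29780 and the family 61 glycosyltransferase AT2G41640. Their log2 fold changes lay between 2.00 for DREB26 and 2.36 for ERF6. In all 15, every waterlogged value lay above every control value, as the rule for naming them required.

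**Figure D2:**
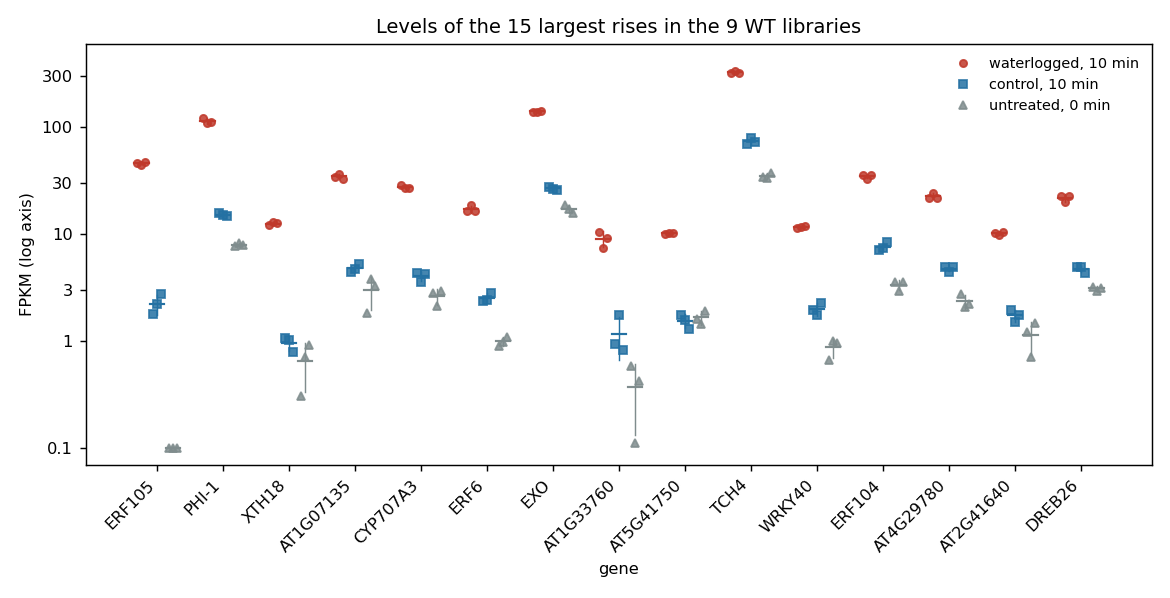
FPKM (log axis) of the 15 protein-coding genes with the largest rise, in the 3 libraries each of waterlogged leaves at 10 min, control leaves at 10 min and untreated leaves at 0 min; horizontal bars are means, vertical bars ± 1 SD, and values below 0.1 are drawn at 0.1. Waterlogged points lie above control points in every gene, from XTH18 with 12.6 against 0.960 FPKM on average to TCH4 with 327 against 74.0 FPKM.

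The untreated leaves themselves changed between 0 and 10 min. In 10 min controls against 0 min leaves 457 genes (2.61%) were higher and 931 (5.32%) lower, together 1388 or 7.94% of those tested. That split turned to 641 higher and 529 lower with quantile normalization, and to 382 and 1445 with nuclear coding genes scaled to equal totals. The count was 481 when only these 6 libraries entered the fit, 849 without control replicate 2 and 922 without the 0 min replicate 3. Several of the risers took part: PHI-1 averaged 15.2 ± 0.57 FPKM in 10 min controls and 7.98 ± 0.26 FPKM at 0 min (SD, n = 3 each), a log2 difference of 0.85 (adjusted p = 9.22e-07). TCH4 averaged 74.0 ± 4.9 FPKM in 10 min controls and 35.1 ± 2.3 FPKM at 0 min, a log2 difference of 1.05 (adjusted p = 7.66e-10). AT5G41750 did not pass, with a log2 difference of -0.06 (adjusted p = 0.697). This comparison and the waterlogging one share the control libraries, so a control value that is high lowers one and raises the other.

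The 250 bases before the annotated gene start were searched on both strands for 6 short motifs in the 16800 tested coding genes whose bounds in the RefSeq TAIR10.1 assembly equal those of the files. The motifs were the rapid stress response element CGCGTT, the CGCG core of calmodulin-binding CAMTA factors, which lies inside CGCGTT, the W-box core TTGAC of WRKY factors, the GCC box GCCGCC of ERF factors, the G-box CACGTG, and the DRE core CCGAC. The promoters of PHI-1, XTH18 and AT1G07135, which are among the largest rises that held a match, and of BGL2, the largest fall, are shown from 5′ to 3′ on the gene's strand, with matched letters in capitals.
PHI-1 (chr1:12851733-12851982, plus strand): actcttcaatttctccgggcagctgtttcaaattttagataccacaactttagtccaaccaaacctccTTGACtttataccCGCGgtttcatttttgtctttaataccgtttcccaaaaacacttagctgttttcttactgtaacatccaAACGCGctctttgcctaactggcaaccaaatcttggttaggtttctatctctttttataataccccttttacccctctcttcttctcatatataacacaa
XTH18 (chr4:14827212-14827461, minus strand): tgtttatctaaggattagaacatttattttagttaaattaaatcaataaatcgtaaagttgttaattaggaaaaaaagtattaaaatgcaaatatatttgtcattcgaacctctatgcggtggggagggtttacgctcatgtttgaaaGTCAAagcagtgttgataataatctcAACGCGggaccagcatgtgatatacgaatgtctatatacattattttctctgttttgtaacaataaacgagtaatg
AT1G07135 (chr1:2190785-2191034, minus strand): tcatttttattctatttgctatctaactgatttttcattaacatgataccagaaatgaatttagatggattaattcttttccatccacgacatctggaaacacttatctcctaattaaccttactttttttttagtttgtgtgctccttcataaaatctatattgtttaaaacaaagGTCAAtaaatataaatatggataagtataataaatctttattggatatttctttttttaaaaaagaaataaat
BGL2 (chr3:21189968-21190217, minus strand): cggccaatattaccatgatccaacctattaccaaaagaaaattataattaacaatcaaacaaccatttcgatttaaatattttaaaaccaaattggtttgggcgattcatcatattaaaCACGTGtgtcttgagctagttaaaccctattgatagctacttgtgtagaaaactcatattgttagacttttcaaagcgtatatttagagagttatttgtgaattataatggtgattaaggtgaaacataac

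The PHI-1 promoter held 1 W-box core, 1 rapid stress response element and 2 CGCG cores, 1 of them within that element. XTH18 held 1 W-box core and 1 rapid stress response element with its CGCG core. AT1G07135 held a single W-box core, and BGL2 a single G-box. CGCGTT was present in 8.68% of the promoters of genes called higher (62 of 714), in 2.05% of those called lower (3 of 146) and in 2.69% of all 16800. CGCG was found in 19.6% of promoters of higher genes, 7.53% of lower genes and 10.8% of all. The W-box core stood in 55.5%, against 45.9% in lower genes and 44.2% of all, and in 12 of the 15 largest rises. Of the same 15, CGCGTT was in 2, CGCG in 3, the G-box in 1, and the GCC box and the DRE core in 0. The GCC box was in 2.66% of higher genes and 1.95% of all, and in 5.59% of the higher genes that changed at least 2-fold (8 of 143). The G-box (7.56% of higher genes, 7.42% of all) and the DRE core (14.1% and 13.3%) were as common among the higher genes as in the whole set to within 1 percentage point. These are counts of letters, not of bound sites.

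The genes that rose also had fewer exons. Of the 714 higher coding genes, 229 (32.1%) had a single exon in the RefSeq annotation, against 33 of the 146 lower ones (22.6%) and 2366 of the 16803 coding genes tested (14.1%). The median exon number was 2 among higher genes, 3 among lower genes and 5 in the whole set. Transcript length did not follow: the medians were 1758, 1756.5 and 1756 bases. Control levels were similar too, with a median of 11.0 FPKM in higher genes, 13.4 FPKM in lower genes and 10.6 FPKM in all coding genes tested. Of the 15 largest rises ERF105, PHI-1, EXO, ERF6, ERF104, DREB26, AT1G07135, AT1G33760 and AT4G29780 have a single exon.

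The transcription factor lists rose to different degrees. Of 14 ERF factors tested, 10 rose and 1 fell, with a list median of 1.0 against the -0.01 of all genes. Beside ERF105, ERF6 averaged 17.1 FPKM in waterlogged leaves and 2.54 FPKM in controls, and ERF104 averaged 35.0 FPKM in waterlogged leaves and 7.63 FPKM in controls. ERF5 measured 9.62, 7.42 and 8.01 FPKM in waterlogged leaves, against 1.72, 2.27 and 2.47 FPKM in controls (log2 fold change 1.57 ± 0.13, adjusted p = 6.4e-09). ERF104, ERF5 and ERF6 are known substrates or targets of stress MAP kinases. The member that fell was ERF15, with a log2 fold change of -0.30, named here for its direction. Both CBF and DREB factors with enough signal rose: DREB26 measured 22.7, 19.9 and 22.9 FPKM in waterlogged leaves, against 4.91, 4.88 and 4.34 FPKM in controls, and the cold regulator CBF2 measured 6.75, 7.01 and 8.69 FPKM in waterlogged leaves, against 3.43, 1.84 and 2.41 FPKM in controls. CBF2 has near-identical neighbours in the genome, and reads may be shared among them.

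Of 9 stress zinc fingers tested 7 rose and none fell, with a median of 1.21. SZF1, a tandem CCCH zinc finger of salt stress, measured 121, 116 and 115 FPKM in waterlogged leaves, against 31.5, 29.1 and 28.5 FPKM in controls. Its log2 fold change of 1.95 ± 0.04 had the smallest adjusted p among the list members named here (4.4e-19), and the 2 groups were tight and far apart. ZAT10, an EAR-motif repressor of abiotic stress responses, measured 36.9, 35.3 and 39.2 FPKM in waterlogged leaves, against 9.41, 10.0 and 9.07 FPKM in controls (log2 fold change 1.86 ± 0.13, adjusted p = 2.41e-10). CZF1, the closest relative of SZF1, and ZAT6 rose by 1.36 and 1.35 on the log2 scale.

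WRKY factors are regulators of defence. Of 17 tested, 9 rose and 1, WRKY17, fell, by 0.27 on the log2 scale, and the list median was 0.50. WRKY33, needed for resistance to necrotrophic fungi, measured 47.1, 45.3 and 49.2 FPKM in waterlogged leaves, against 11.4, 11.2 and 11.6 FPKM in controls (log2 fold change 1.95 ± 0.07, adjusted p = 3.22e-16). WRKY40 averaged 11.6 FPKM in waterlogged leaves and 2.00 FPKM in controls, and its paralogue WRKY18 rose by 1.70 on the log2 scale. Of 6 MYB factors 5 rose, with a median of 1.22, and MYB73, MYB44 and MYB77, related factors of one subgroup, had log2 fold changes of 1.31, 1.3 and 1.26. MYB44 measured 51.3, 49.7 and 50.1 FPKM in waterlogged leaves, against 19.7, 19.7 and 20.4 FPKM in controls. Of 10 NAC factors only NAC062 and ATAF2 passed, with 1.04 and 0.48 on the log2 scale and a list median of 0.14.

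Calcium-linked genes rose in 9 of 15 cases with no fall, median 0.51. The kinase CPK28, which restrains immune signalling, measured 47.3, 48.0 and 50.1 FPKM in waterlogged leaves, against 12.8, 12.2 and 11.5 FPKM in controls (log2 fold change 1.91 ± 0.06, adjusted p = 1.99e-16). TCH3, a calmodulin-like protein first found by its response to touch, measured 349, 350 and 336 FPKM in waterlogged leaves, against 115, 115 and 117 FPKM in controls (log2 fold change 1.57 ± 0.06, adjusted p = 9.21e-15). Both showed a clear gap between groups. CPK32 and the calmodulin-like CML23 rose by 1.17 and 1.15 on the log2 scale. Of the 16 cell wall and touch genes tested, 12 rose, none fell and the median was 1.0; XTH23, with the fourth largest change of that list, averaged 6.26 FPKM in waterlogged leaves and 0.586 FPKM in controls. XTH genes are a family of similar sequences, so small differences between them are uncertain.

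RBOHD (AT5G47910, chromosome 5 at 19397041 to 19402061) rose at 10 min. It measured 31.8, 32.4 and 32.8 FPKM in waterlogged leaves, against 16.8, 15.6 and 15.6 FPKM in controls. The groups did not overlap, and the log2 fold change was 0.97 ± 0.07 (adjusted p = 1.06e-10). RBOHF, the only other of the 10 oxidases above the filter, measured 2.00, 2.59 and 2.38 FPKM in waterlogged leaves, against 2.44, 2.19 and 2.22 FPKM in controls, with an adjusted p of 0.986. Enzymes that remove reactive oxygen species, and glutathione transferases, gave 1 call in 16: GSTF6 fell and none rose, at adjusted or unadjusted p below 0.05. Of 4 mitochondrial stress genes, OM66, an outer membrane AAA-ATPase, rose by 1.42 on the log2 scale (adjusted p = 1.35e-13), while the alternative oxidase AOX1A measured 12, 12.5 and 12.6 FPKM in waterlogged leaves, against 12.3, 11.5 and 12.6 FPKM in controls. None of 14 channels, pumps and pores of long-distance signalling was called by limma, against 5% of all genes tested. An unadjusted p below 0.05 was found in 1 of them, against 13.1% of all genes tested. The 4 with the largest change, PDLP5, GLR3.1, CNGC20 and GLR3.6, had overlapping groups. These 4 were not called with trend and robust options either.

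Kinase and ubiquitin ligase genes rose in part of their lists. Of 13 MAP kinase cascade genes 5 rose and none fell (median 0.15): MPK3, a kinase of stress and immune signalling, measured 106, 102 and 101 FPKM in waterlogged leaves, against 33.9, 35.2 and 33.8 FPKM in controls (log2 fold change 1.56 ± 0.06, adjusted p = 9.21e-15). The upstream kinases MKK9 and MKK4 rose by 1.09 and 0.55 on the log2 scale, and the phosphatase AP2C1, which switches such kinases off, by 0.73. Of 13 U-box and RING ligases 7 rose (median 0.27), led by ATL31, ATL2, PUB23 and CMPG1 with log2 fold changes between 1.11 and 1.28. Of 19 immune genes 6 rose (median 0.12), and the syntaxin SYP122 stood apart with 32.5, 33.0 and 33.0 FPKM in waterlogged leaves, against 9.64, 8.62 and 8.70 FPKM in controls. The receptor kinase SOBIR1 and the chitin receptor LYK5 rose by 0.66 and 0.65 on the log2 scale. CAF1A and CAF1B, deadenylases that shorten mRNA tails, rose by 1.54 and 0.54, the call of CAF1B being lost with the 6 libraries fitted alone (adjusted p = 0.0503).

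Heat shock factors and chaperones rose in 9 of 16 cases, median 0.30. The repressor-class factor HSFB2A measured 14.8, 14.3 and 14.1 FPKM in waterlogged leaves, against 8.48, 7.49 and 7.57 FPKM in controls (log2 fold change 0.80 ± 0.07, adjusted p = 1.09e-08). HSFA2, which sustains the heat response, rose by 0.54 on the log2 scale and the coactivator MBF1C by 0.61. Genes of low sugar and darkness rose in 7 of 16 cases, median 0.15: the inositol oxygenase MIOX2 by 0.89, the factors BZIP53 and BZIP1 by 0.81 and 0.51, and the BTB protein BT2 by 0.52.

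**Figure D3:**
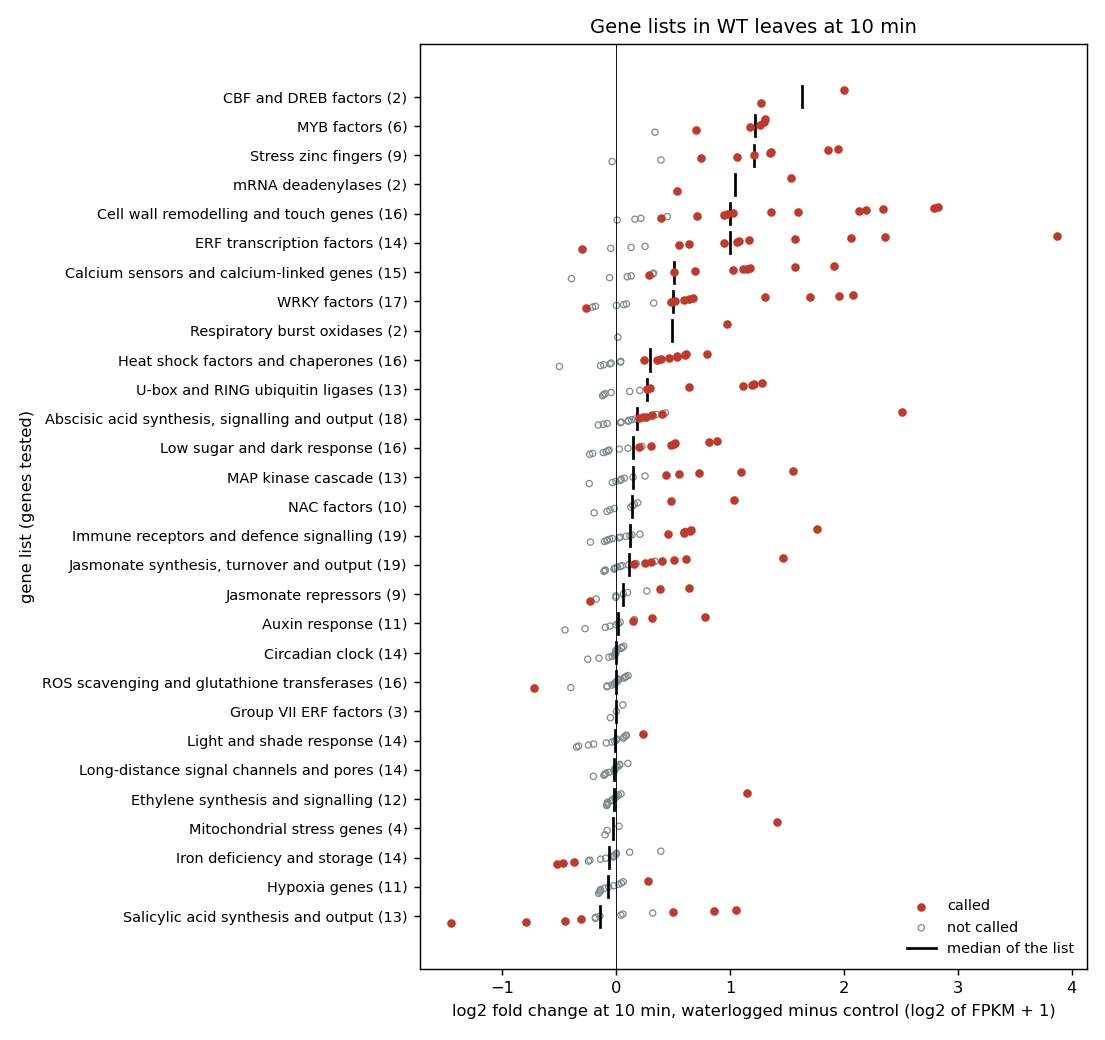
Each point is 1 tested gene of a list, placed by its log2 fold change at 10 min (waterlogged minus control), filled if called; black bars are list medians, and lists run from the highest median at the top to the lowest at the bottom, with the number of genes tested in brackets. The ERF list reaches from -0.30 to 3.87, while the hypoxia list stays between -0.15 and 0.28.

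Hormone lists gave a mixed picture. For salicylic acid, 3 of 13 genes rose and 4 fell, with a median of -0.14. SARD1 and CBP60G, the related factors that switch on salicylic acid synthesis, rose: SARD1 measured 4.67, 4.41 and 5.33 FPKM in waterlogged leaves, against 1.70, 2.08 and 1.62 FPKM in controls (log2 fold change 1.05 ± 0.09, adjusted p = 1.46e-08), and CBP60G rose by 0.86. PAD4, a partner of EDS1, rose by 0.50. The 4 that fell, BGL2, PR1, PCC1 and PR5, are outputs of the pathway, with log2 fold changes of -1.45, -0.79, -0.45 and -0.31. PR1 was low and its groups overlapped, at 0.913, 0.690 and 0.138 FPKM in waterlogged leaves, against 2.55, 0.651 and 2.25 FPKM in controls, and its call (adjusted p = 0.0491) was lost without control replicates 1 or 3 or waterlogged replicates 2 or 3 (adjusted p from 0.0792 to 0.331). At 30 min 11 of the 13 genes were higher than their controls and none lower, where 7.78% of all genes tested were higher and 4.1% lower.

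Jasmonate synthesis, turnover and output genes rose in 7 of 19 cases with no fall, median 0.11. The lipoxygenase LOX4 measured 8.93, 9.0 and 8.32 FPKM in waterlogged leaves, against 2.90, 2.52 and 2.23 FPKM in controls (log2 fold change 1.46 ± 0.09, adjusted p = 1.44e-11). OPCL1 and AOC3, further enzymes of the pathway, rose by 0.62 and 0.51, and the factor MYC2 by 0.41. Of 9 JAZ repressors, JAZ1 and JAZ5 rose and JAZ3 fell (median 0.06). With the 6 libraries at 10 min fitted alone, JAZ1, JAZ5 and MYC2 did not pass (adjusted p = 0.0976, 0.0956 and 0.0874). The call of JAZ3 was lost whichever of the 6 libraries was left out (adjusted p from 0.05 to 0.23). In the abscisic acid list 6 of 18 rose (median 0.18), with CYP707A3 far ahead of the phosphatase AHG3 at 0.40. Of 12 ethylene genes only ACS6, a synthase of the ethylene precursor, rose: it measured 75.5, 74.2 and 70.7 FPKM in waterlogged leaves, against 32.0, 34.0 and 31.9 FPKM in controls (log2 fold change 1.15 ± 0.07, adjusted p = 4.67e-12). The list median was -0.02, and the ethylene receptors and EIN3 did not pass.

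The fermentation and hypoxia genes gave 1 call at 10 min, when 4.14% of all genes tested were called higher and 0.863% lower. Of 22 listed, 11 had enough signal and 1 rose, the alanine aminotransferase ALAAT1, at 61.7, 65.5 and 61.9 FPKM in waterlogged leaves against 52.2, 52.2 and 51.0 FPKM in controls (log2 fold change 0.28 ± 0.05, adjusted p = 4.21e-04). The list median was -0.07. ADH1, the alcohol dehydrogenase of fermentation, measured 1.80, 1.32 and 1.54 FPKM in waterlogged leaves, against 1.69, 2.04 and 1.73 FPKM in controls, and these values overlapped (adjusted p = 0.666). LBD41 and HRA1, low-oxygen regulators, had log2 fold changes of -0.15 and -0.14 and did not pass. The group VII factor RAP2.3, part of oxygen sensing, measured 106, 111 and 106 FPKM in waterlogged leaves, against 103, 102 and 104 FPKM in controls (adjusted p = 0.704). At 60 min 5 of the 11 hypoxia genes were higher than their controls and none lower, at a time when 14.7% of all genes tested were higher and 15% lower.

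The remaining lists are set beside the 4.14% of all genes tested that were called higher and the 0.863% called lower. None of 14 clock genes was called by limma. An unadjusted p below 0.05 was found in 2, against 13.1% of all genes tested. These were ELF3 and ZTL, with log2 fold changes of -0.25 and -0.15. Neither was called with trend and robust options. Of 14 light and shade genes only PIF5 rose, at 140, 140 and 139 FPKM in waterlogged leaves against 122, 117 and 116 FPKM in controls, a log2 fold change of 0.24 ± 0.05 (adjusted p = 0.00493). Of 11 auxin genes 3 rose, the repressor IAA6 most, at 0.78. The iron list gave 3 falls of 14 and no rise: the short peptide gene AT1G47400 and the bHLH factors BHLH38 and BHLH39, which activate iron uptake, with log2 fold changes of -0.52, -0.47 and -0.37. BHLH38 measured 8.95, 8.58 and 11.0 FPKM in waterlogged leaves, against 12.7, 14 and 13.6 FPKM in controls, without overlap. The groups of BHLH39 overlapped. BHLH101, also of this list, went the other way, with 4.92, 3.57 and 5.03 FPKM in waterlogged leaves and 3.12, 3.47 and 2.92 FPKM in controls. Its log2 fold change of 0.39 did not pass (limma, adjusted p = 0.125). With the 6 libraries at 10 min fitted alone, none of these 3 falls passed (adjusted p = 0.11, 0.0669 and 0.3). The call of AT1G47400 was lost without control replicate 2 or waterlogged replicate 3 (adjusted p = 0.0724 and 0.119). That of BHLH39 was lost without control replicate 3 or waterlogged replicates 1 or 3 (adjusted p = 0.158, 0.0545 and 0.188). Over the 23 lists with no called fall, 10 of 259 genes were lower at an unadjusted p below 0.05.

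The falls were smaller than the rises. BGL2 (AT3G57260, chromosome 3 at 21188397 to 21189967), the pathogenesis-related beta-1,3-glucanase also known as PR2, measured 2.67, 3.57 and 3.55 FPKM in waterlogged leaves, against 9.63, 11.9 and 10.5 FPKM in controls. Its log2 fold change was -1.45 ± 0.09 (adjusted p = 6.32e-11), the largest fall among the coding genes that averaged 5 FPKM or more. At 0 min it had stood at 40.8, 44.2 and 40.5 FPKM, so both groups at 10 min lay below the 0 min leaves, the waterlogged one furthest. The glutathione transferase GSTF6 measured 7.59, 7.98 and 7.12 FPKM in waterlogged leaves, against 12.8, 13.1 and 13.3 FPKM in controls (log2 fold change -0.72 ± 0.08, adjusted p = 3.95e-07). GSTF7, its near-identical neighbour with which reads may be shared, fell by 0.68, and both averaged more at 0 min than in 10 min controls. DMR6, an oxygenase that inactivates salicylic acid, averaged 18.5 ± 1.1 FPKM in waterlogged leaves and 27.2 ± 0.36 FPKM in controls (log2 fold change -0.53 ± 0.05, adjusted p = 1.48e-08). Its groups did not overlap, as the rule for naming the 10 largest falls required.

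Another group of falls stood beside controls that had risen since 0 min. LURP1, a gene of late pathogen responses, averaged 9.46 FPKM in waterlogged leaves, against 14.7 FPKM in controls at 10 min and 9.20 FPKM at 0 min. UMAMIT36, a predicted amino acid transporter, averaged 4.45 FPKM in waterlogged leaves, against 7.05 FPKM in controls and 4.81 FPKM at 0 min. AT3G25190, annotated as a vacuolar iron transporter, averaged 4.43 FPKM in waterlogged leaves, against 7.19 FPKM in controls and 4.36 FPKM at 0 min. In these genes the waterlogged leaves stood near the 0 min level and the controls above it. The adjusted p values for the controls against 0 min were 0.0125, 0.00154 and 0.0111 (limma). Both comparisons use the 10 min control libraries, so a high control value alone would give this order. These p-values are therefore not separate evidence of it. The carboxypeptidase gene scpl31 had the same order with a smaller gap (adjusted p = 0.0479), while USPL1 and AT5G53486 were lower in waterlogged leaves than in both untreated groups. With the 6 libraries at 10 min fitted alone, the calls of AT5G53486, scpl31 and UMAMIT36 were lost (adjusted p = 0.0636, 0.0636 and 0.0835). The call of LURP1 was lost without control replicate 3 or waterlogged replicates 2 or 3 (adjusted p = 0.154, 0.0831 and 0.114), and that of AT3G25190 without control replicate 1 or waterlogged replicate 3 (0.0905 and 0.0957).

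**Figure D4:**
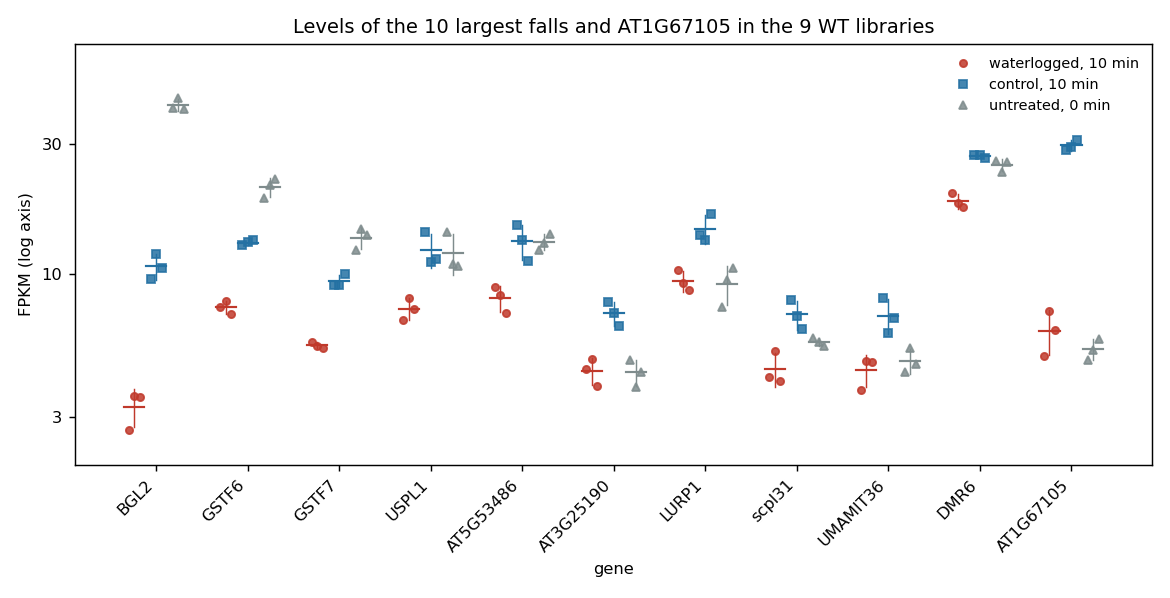
FPKM (log axis) of the 10 coding genes with the largest fall and of the non-coding AT1G67105, in the 3 libraries each of waterlogged leaves at 10 min, control leaves at 10 min and untreated leaves at 0 min; horizontal bars are means and vertical bars ± 1 SD. BGL2 is lowest in waterlogged leaves, higher in 10 min controls and highest at 0 min, while AT1G67105 is high only in the 10 min controls of these 3 groups.

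AT1G67105, an ncRNA on chromosome 1 at 25057479 to 25058264, followed the same order at a larger scale. It measured 5.01, 7.34 and 6.24 FPKM in waterlogged leaves, against 28.6, 29.4 and 31.1 FPKM in controls at 10 min and 4.85, 5.26 and 5.80 FPKM at 0 min. The log2 fold change of waterlogging was -2.10 ± 0.16 (adjusted p = 1.66e-09). In the libraries labelled 30 min the order was the opposite, with 31.8 ± 1.5 FPKM in waterlogged leaves and 5.02 ± 0.50 FPKM in controls (SD, n = 3 each), and at 60 min it averaged 4.98 FPKM in waterlogged leaves and 6.25 FPKM in controls. High values thus stood in the 3 libraries labelled as 10 min controls and the 3 labelled as waterlogged for 30 min. ERF105 was higher in the waterlogged libraries at both times. That order would be the same with the 10 and 30 min controls exchanged, so ERF105 cannot decide on such an exchange. Whether the labels have a part in the values of AT1G67105 was not tested. AT1G67105 and BGL2 were among the 5 genes that were called at least 2-fold lower. The others were NIT2, a nitrilase with 0.139, 0.450 and 0.550 FPKM in waterlogged leaves against 2.24, 1.73 and 1.87 FPKM in controls, and the non-coding AT1G05323 and AT4G39363, both listed at 0 in all waterlogged libraries. NIT2 and AT1G05323 were chosen for mention after their values were seen.

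Short RNAs gave the most extreme values and are the least certain. Genes U1.5, U1.6 and U1.7 encode near-identical U1 spliceosomal RNAs, and all were listed at 0 in the 3 controls at 10 min and the 3 leaves at 0 min. In waterlogged leaves U1.5 measured 79.8, 72.0 and 66.5 FPKM, U1.6 measured 109, 21.2 and 5.45 FPKM, and U1.7 measured 112 and 12.5 FPKM and was near 0 in the other library. The snoRNA AT4G39363 was listed at 0 in the waterlogged leaves and at 474, 741 and 770 FPKM in the controls. These RNAs are short and reads can be shared between the U1 copies, so no fold is given. The call of U1.6 was lost with the 6 libraries fitted alone (adjusted p = 0.0746). The call of AT4G39363 was lost whichever of the 6 libraries was left out (adjusted p from 0.0623 to 0.0786), and that of U1.7 without any library but waterlogged replicate 3 (adjusted p from 0.0827 to 0.264). The plastid gene petB, for cytochrome b6, measured 3.44, 4.7 and 3.57 FPKM in waterlogged leaves, against 7.44, 5.9 and 7.05 FPKM in controls and 3.51, 3.87 and 5.15 FPKM at 0 min. Its call (adjusted p = 0.0327) was lost without control replicates 1 or 3 or waterlogged replicates 1 or 3 (adjusted p from 0.115 to 0.15).

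The rises lasted to 30 min and mostly not to 60 min. Of the 724 genes higher at 10 min, 679 (93.8%) were also higher at 30 min than the 30 min controls, and 4 were lower; among all genes tested 7.78% were higher and 4.1% lower at 30 min (11.9% in either direction). Their median log2 fold change was 0.52 at 10 min and 0.82 at 30 min. At 60 min 324 of the 724 (44.8%) were higher and 162 (22.4%) were lower, against 14.7% and 15% of all genes (29.7% in either direction), and the median was 0.16. Of the 151 genes lower at 10 min, 50 (33.1%) were lower and 25 (16.6%) higher at 30 min, with 53 lower and 27 higher at 60 min. These 3 comparisons use separate libraries.

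Testing the change of the effect itself, 419 genes (2.4%) had a more positive and 131 (0.749%) a more negative effect at 30 min than at 10 min, together 550 or 3.14% of those tested. At 60 min the effect was more positive in 1572 genes (8.99%) and more negative in 1901 (10.9%), together 3473 or 19.9%. These differences use the 10 min libraries that also chose the genes named here. PHI-1 was one of those that went down: its log2 fold change was 2.82 at 10 min, 3.68 at 30 min and -0.34 at 60 min, and the 60 min effect was 3.17 below that at 10 min (adjusted p = 1.15e-14). TCH4 followed the same course with 2.13, 3.13 and -0.74. RBOHD had 0.97 at 10 min, 1.21 at 30 min and -0.75 at 60 min, when it averaged 13.5 ± 0.3 FPKM in waterlogged leaves and 23.4 ± 2.0 FPKM in controls (SD, n = 3 each). XTH18 was the exception among the 15 largest rises, still up by 1.64 on the log2 scale at 60 min (adjusted p = 1.16e-11). TCH3, too, kept a log2 fold change of 1.24 at 60 min.

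ERF105 averaged 72.6 ± 3.8 FPKM in waterlogged leaves at 30 min and 0.436 ± 0.755 FPKM in their controls, and was listed below 0.1 FPKM in both groups at 60 min. Its 60 min comparison thus sets groups without signal side by side. Some falls turned round by 30 min: BGL2 averaged 18.4 ± 1.2 FPKM in waterlogged leaves and 7.89 ± 0.48 FPKM in controls, GSTF6 averaged 23.8 ± 2.1 FPKM in waterlogged leaves and 13.0 ± 0.8 FPKM in controls, and DMR6 had a log2 fold change of 0.43 (adjusted p = 2.83e-07). At 60 min BGL2 and GSTF6 were lower than controls again, with log2 fold changes of -1.26 and -0.71.

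**Figure D5:**
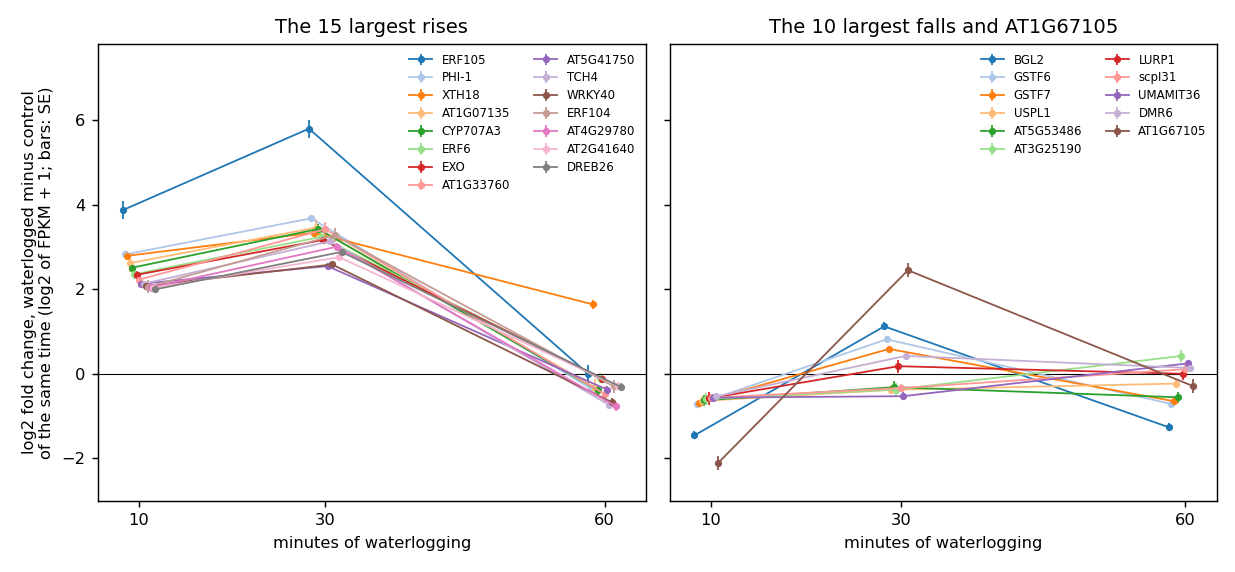
Log2 fold change (waterlogged minus control of the same time, log2 of FPKM + 1) at 10, 30 and 60 min for the 15 largest rises (left) and for the 10 largest falls with AT1G67105 (right); bars are SE, and points of one time are set side by side. All 15 rises are higher at 30 min than at 10 min and, except XTH18 at 1.64, end near or below 0 at 60 min, while BGL2 and GSTF6 cross 0 in both directions.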

How the data were processed

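RNA from leaves was sequenced in 30 libraries. The authors trimmed, aligned and quantified the reads with Trim Galore 0.6.7, HISAT2 2.2.1 and Cufflinks 2.2.1 with Cuffdiff on TAIR10, per the submitters' processing notes, and deposited 1 table of FPKM values per library. The FPKM values carry no counts: 49.7% to 50.8% of low values in the 10 min libraries were whole multiples of 1 fragment (tolerance 0.02), so reads were not recovered and depth is only implied. Strand use in counting is not given in the sources used here. Replicates of the 10 min groups correlated at 0.9915 to 0.9931.

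From these, genes averaging 1 FPKM or more across the libraries (17491 of 32820) were tested on log2(FPKM + 1) with limma 3.58.1 in R 4.3.3, over 10 groups of 3 with 20 residual degrees of freedom, and p-values were adjusted by Benjamini-Hochberg. A fold change on this scale understates that of low genes. Genes were named by rule. Among called genes averaging 5 FPKM or more with groups that did not overlap, these were the 15 largest coding rises and 10 largest coding falls. Up to 3 genes per direction not annotated as protein-coding, petB among them, were added under the same conditions. Up to 5 per direction were named for each change of effect between times. These were called in both tests and averaged 5 FPKM or more, with or without overlap. RBOHD was named in any case. Up to 4 members of each list were also named, by size of change. The members, the 29 gene lists and the 7 marker lists were chosen with earlier results of these data known. Loci and exons came from RefSeq TAIR10.1, whose bounds equal those in the files for 99.9% of matched genes. Alternatives were other scalings, pseudocounts, filters, variance models, a replicate block, fewer groups and single libraries left out. The fit was tested on simulated data. Some items are not reported here.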

Additional observations from a re-analysis of the deposited data

Results flagged for a closer look

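The effect of waterlogging differed between times by the test of the difference itself, in limma with Benjamini-Hochberg adjustment. It differed between 30 and 10 min in 550 genes and between 60 and 10 min in 3473 genes. These tests use the 10 min libraries that also chose the genes.

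On the log2(FPKM + 1) scale, the effect at 30 min was above that at 10 min by 4.55 for AT1G67105, 2.58 for BGL2, 1.93 for ERF105, 1.53 for GSTF6 and 1.46 for AT3G50800, an uncharacterized protein. For ERF105 the waterlogged leaves averaged 46.1 FPKM at 10 min and 72.6 FPKM at 30 min. Its controls averaged 2.24 FPKM at 10 min and 0.436 ± 0.755 FPKM at 30 min (SD), which is near the floor. The effect at 30 min was below that at 10 min for AT1G48100 (-0.96), a pectin lyase-like protein, AT5G42825 (-0.85), an uncharacterized protein, and the beta-amylase BMY3 (-0.56). BMY3 measured 86.5, 84.3 and 82.9 FPKM in waterlogged leaves at 10 min, against 67.9, 69.5 and 67.9 FPKM in controls. At 30 min it averaged 75.8 FPKM in waterlogged leaves and 90.8 FPKM in controls. Its log2 fold change was 0.30 at 10 min and -0.26 at 30 min. AT5G42825 averaged 19.5 and 21.7 FPKM in waterlogged leaves at 10 and 30 min, and 12.7 and 26.0 FPKM in controls. AT1G48100 averaged 13.6 and 9.91 FPKM in waterlogged leaves at these times. Its controls measured 18.0, 18.0 and 16.7 FPKM at 10 min and averaged 26.0 FPKM at 30 min. In each of these genes the controls were higher at 30 min, which is part of the difference in effect.

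At 60 min the effect was above that at 10 min by 1.82 for AT1G67105, 1.47 for the raffinose synthase family gene DIN10, 1.37 for the sugar transporter STP1, 1.37 for the ankyrin protein ACD6 and 1.35 for the asparagine synthetase DIN6. It was below it for ERF105 (-3.87), LOX4 (-3.25) and PHI-1 (-3.17). For ERF105 both groups at 60 min were below 0.1 FPKM. LOX4 rose by 1.46 on the log2 scale at 10 min and by 1.95 at 30 min, and stood at -1.79 at 60 min. The sugar genes went the other way: STP1 had 0.27, 0.69 and 1.64, and DIN10 had 0.48, 1.0 and 1.96. ACD6 fell at 10 min by 0.32 and stood at 1.04 at 60 min.

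The 10 min call of AT5G42825 was lost without control replicate 2 or waterlogged replicate 1 (adjusted p = 0.188 and 0.203), and that of DIN6 without control replicates 1 or 2 or waterlogged replicates 1 or 3 (adjusted p from 0.0753 to 0.23). With the 6 libraries at 10 min fitted alone, AT1G48100, AT5G42825 and DIN6 did not pass at 10 min (adjusted p = 0.0799, 0.243 and 0.255).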

How the results depend on the processing

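The count of 875 genes at 10 min ranged from 660 (groups compared alone) to 882 under 8 other settings and from 720 to 740 with single libraries left out. At 2-fold or more, 153 genes ranged from 103 (mean of at least 5 FPKM) to 198 (pseudocount 0.1), and from 147 to 158 with a library left out. The effect at 30 min minus that at 10 min stayed between 445 and 580, and at 60 min between 3027 and 3857. Controls at 10 min against 0 min gave 481 genes with the groups compared alone and 849 to 1031 with a library left out; the cause was not tested. With the replicate block the counts were 852, 153, 523, 3389 and 1284. Same-numbered waterlogged and control libraries at 10 min correlated in their deviations at -0.113, -0.014 and -0.043, so the numbers were not taken as a pairing across treatments. Same-numbered waterlogged libraries at 10 and 30 min correlated at 0.155, 0.104 and 0.134, and the differently numbered ones between -0.119 and -0.009. Deviations within a group of 3 sum to 0, so positive values for some pairs bring negative ones for others. Waterlogged replicate 3 and control replicate 2 at 60 min, differently numbered, correlated at 0.191. These values therefore cannot settle whether the numbers are shared across times. The block took the count for 30 min minus 10 min to 523, against 550 without it. Of 101 named and called genes 80 kept their call in every setting run and none changed direction; 21 lost it in at least 1 setting: 17 with the groups compared alone, the setting that ended most, 11 with a library left out (U1.7, AT4G39363, petB, LURP1 and AT3G25190 among them), 7 with no filter on low values, 2 each with quantile normalization and with equal totals, and 1 with a pseudocount of 0.1. GSTU4 (pseudocount 0.1) and BHLH101 (without waterlogged replicate 2) gained a call. Direction turned in uncalled genes near 0: RAP2.12 (-0.01 with quantile normalization, -3.4e-03 at equal totals), and, with single libraries left out, RAP2.12 (-0.01 to 0.01, with -1.8e-03 and -4.4e-03 between), RBOHF (-0.04 to 0.09), AOX1A (-0.01 to 0.05), NDB2 (-0.18 to 0.04) and AT2G21640 (-0.14 to 0.02). Of 29 list medians, 24 moved in at least 1 setting by at least the SD of the list's median deviation over the 6 libraries. The largest move was 0.50, more than many of these medians themselves. FPKM tables limit what can be said of low genes and short RNAs.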
